A study of Mus musculus with 10 samples.

Results

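The genes described here make cholesterol and fatty acids: the enzymes of the mevalonate and sterol pathway, the regulators of the SREBP transcription factors and the enzymes that build or control the first fatty acids. They were listed by name, with earlier results of these data known. The list holds 31 genes, and 29 of them were measured by a probe set that names a single gene, among 22180 genes measured in this way. Idi1 lay on a probe set that also names another gene and Acat2 was not named by any probe set used, so neither is given a value. Where a gene had more than 1 probe set, the one with the highest mean over the 10 arrays stood for it, which among the 29 concerned Scap alone.

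Levels were measured in mouse regulatory T (Treg) cells, a CD4 lineage defined by Foxp3 that holds immune responses in check, with 5 wild type (WT) and 5 LKB1-deficient samples on 1 array each. LKB1 is the protein kinase encoded by Stk11, and the sample titles name the second group as carrying a deletion of Stk11. Cells of both groups were sorted from mixed bone marrow chimeras, animals whose blood cells come from more than 1 marrow donor, and were lysed without culture. The sources used here do not give the Cre driver, the deleted exons, the organ, the age of the animals or any pooling. No label states that replicates were separate animals, and p-values then cover the spread among these samples alone, which may be technical. Values are log2 signals, in which a difference of 1 is a 2-fold change. Levels of different genes are not compared with each other, since each probe set has its own response.

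Cholesterol is built from acetyl-CoA by way of mevalonate, isoprenoid units, squalene and lanosterol. Its enzymes share control by SREBP factors, which the protein SCAP carries from the endoplasmic reticulum to the Golgi for cleavage when sterols are low and which the INSIG proteins hold back when sterols are high. SREBP-2, encoded by Srebf2, acts mainly on sterol genes and SREBP-1c, from Srebf1, mainly on fatty acid genes. LKB1 activates the kinase AMPK, which phosphorylates and inhibits acetyl-CoA carboxylase and HMG-CoA reductase. In T cells the mevalonate branch also supplies the isoprenoid anchors of small GTPases.

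The groups differed in spread and in the transcripts of other cells. Over genes, pairs of WT arrays had r of 0.990 to 0.993 and pairs of LKB1-deficient arrays r of 0.969 to 0.989. Stk11 was lower than the lowest WT array (6.61) on LKB1-deficient arrays 1, 2 and 3 (6.57, 6.01 and 6.05) and within the WT range on arrays 4 and 5 (6.71 and 6.78), and its difference of -0.36 did not pass (limma, adjusted p = 0.335). Whether its probe set covers the deleted part is not known, so it may check the labels only in part. The mean of 15 macrophage and monocyte genes was 6.45 to 6.90 on WT arrays, 7.15, 6.59 and 6.84 on LKB1-deficient arrays 1, 2 and 3, and 9.29 and 9.40 on arrays 4 and 5. All 15 had positive differences and 0 passed the test. The mean of 6 B and plasma cell genes was 5.19 to 5.55 on WT arrays, 6.71, 6.38 and 6.67 on LKB1-deficient arrays 1, 4 and 5, and 5.42 and 5.46 on arrays 2 and 3. The NK list of 7 genes lay at 4.49 to 4.59 on WT and at 4.64 to 5.71 on LKB1-deficient arrays, with Klrd1 higher (1.53, adjusted p = 0.0170). The 6 Treg and T cell genes, Foxp3 among them, averaged 10.64 to 10.72 on WT arrays, 10.02 on LKB1-deficient array 1 and 10.51 to 10.87 on the others. The 7 genes of dividing cells averaged 5.80 to 6.37 on WT and 5.76 to 6.26 on LKB1-deficient arrays, and Mcm6, a subunit of the replicative helicase, was lower among them (-0.53, adjusted p = 0.0303). In sorted bulk samples, fewer cells of a type and less RNA per cell cannot be told apart. The part of these lists in the results below was not tested beyond the fits named beside them.

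Of the 29 measured genes, 27 were lower in LKB1-deficient cells by their estimate and 2 were higher, while over all genes 49.2% had an estimate below 0. Squalene epoxidase (Sqle) and fatty acid synthase (Fasn) passed the test, both lower, and 0 of the 29 passed in the other direction. A call was a Benjamini-Hochberg adjusted p under 0.05 in limma over all 22180 genes. It was reached by 236 genes (1.06%), of which 184 were lower (0.83%) and 52 higher (0.234%), and a second quantile normalization gave 103 lower and 67 higher. At an unadjusted p under 0.05, 12 of the 29 were lower and 0 higher, against 8.8% and 5.19% of all genes. Groups did not overlap for 6 of the 29, all lower, against 3.71% of all genes lower and 0.996% higher. The median difference of the 29 was -0.24, and that of all genes was 0.00. The genes were listed with earlier results of these data known, so these counts describe the list and are no independent test of it.

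The LKB1-deficient arrays differed in how many of the 29 genes were low. Array 1 lay below the lowest WT array for 21 of them, array 2 for 20, array 3 for 16, array 4 for 21 and array 5 for 11. Over all genes the share below the lowest WT array was 28.5%, 24.7%, 20.7%, 24.7% and 26.2% on the same arrays, against 72.4%, 69%, 55.2%, 72.4% and 37.9% of the 29. Arrays 1 and 4 each held the lowest value of their group for 10 genes, and array 5 for 1. By gene, 6 lay below WT on all 5 LKB1-deficient arrays, 9 on 4 of them, 6 on 3, 1 on 2, 3 on 1 and 4 on none. The genes on none were Tm7sf2, Srebf1, Insig2 and Acacb. Over all genes, 3.71% lay below WT on all 5 LKB1-deficient arrays. Shares of all genes were not counted for fewer arrays or for the array with the lowest value of its group.

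**Figure D1:**
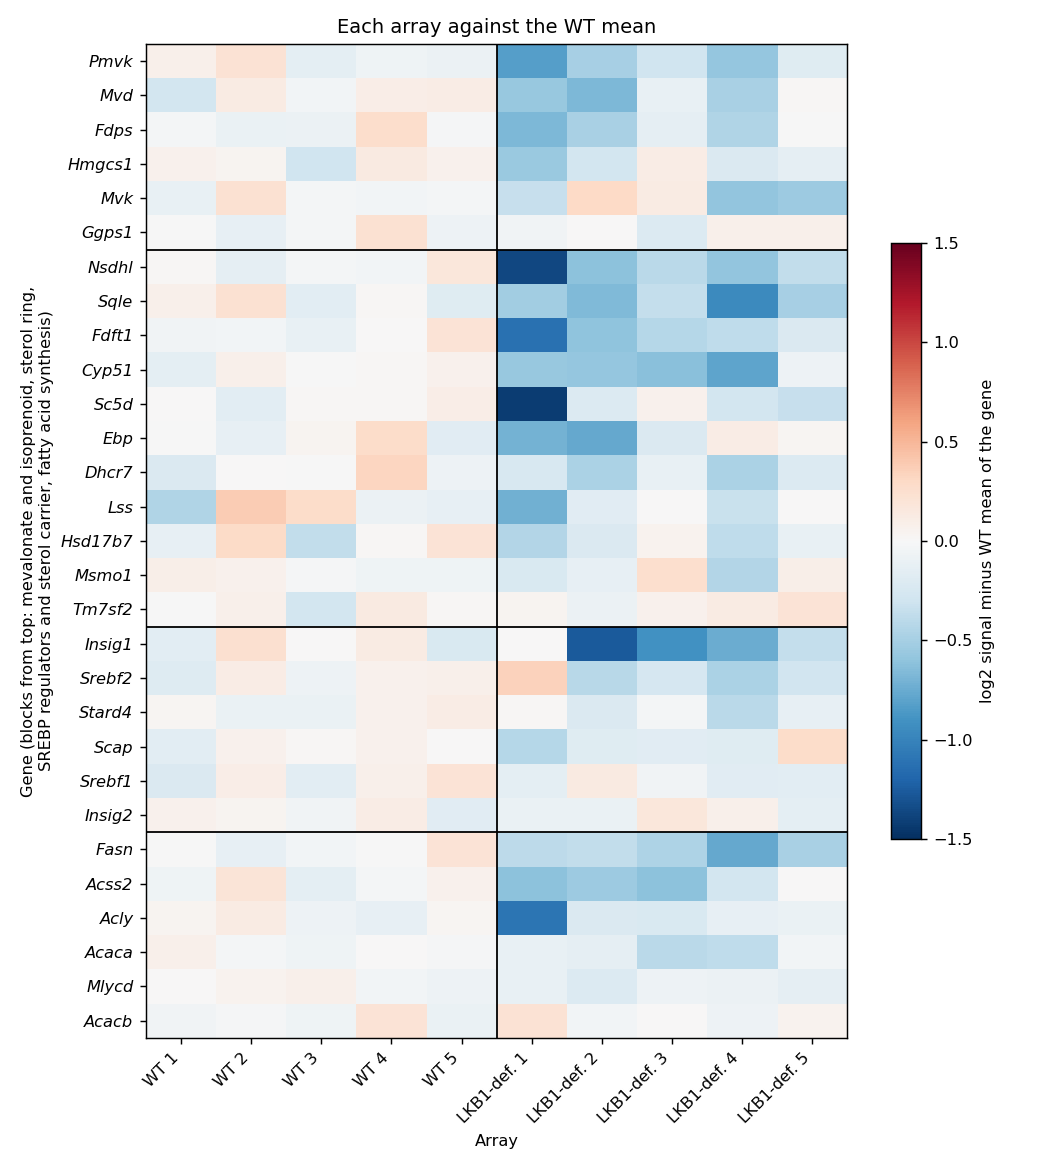
Log2 signal of each gene on each array minus the WT mean of that gene, for the 29 measured genes (rows, in 4 blocks) and 10 arrays (columns); blue is lower and red higher than the WT mean. The LKB1-deficient columns are mostly blue in the mevalonate, sterol ring and fatty acid blocks, least so on array 5, and array 1 holds the darkest cells, among them Nsdhl at 6.33 against a WT mean of 7.70.

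The promoters of these genes are shown because SREBP factors act with the CCAAT-binding factor NF-Y and with Sp1 at such genes. RefSeq promoter windows of GRCm38.p6, 250 bases before to 50 after a start, were matched by symbol for 25 of the 29 genes. Sqle, Fdft1, Fdps and Stard4 had no entry. The sequences below are the 250 bases before the start, 5′ to 3′ on the strand of the gene, with CCAAT or its reverse complement ATTGG and the sterol element TCACNCCAC in capitals. They are those of Hmgcs1 (chr13:119690101-119690350, plus strand), Cyp51 (chr5:4104698-4104947, minus strand), Nsdhl (chrX:72918271-72918520, plus strand), Insig1 (chr5:28071162-28071411, plus strand) and Fasn (chr11:120824548-120824797, minus strand), and, for a sterol ring gene with a positive estimate, Tm7sf2 (chr19:6067851-6068100, minus strand).
Hmgcs1: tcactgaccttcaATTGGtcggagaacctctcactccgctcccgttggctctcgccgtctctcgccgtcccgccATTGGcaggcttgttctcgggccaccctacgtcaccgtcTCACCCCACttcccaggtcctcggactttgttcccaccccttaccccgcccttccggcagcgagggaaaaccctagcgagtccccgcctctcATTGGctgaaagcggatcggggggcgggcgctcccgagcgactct
Cyp51: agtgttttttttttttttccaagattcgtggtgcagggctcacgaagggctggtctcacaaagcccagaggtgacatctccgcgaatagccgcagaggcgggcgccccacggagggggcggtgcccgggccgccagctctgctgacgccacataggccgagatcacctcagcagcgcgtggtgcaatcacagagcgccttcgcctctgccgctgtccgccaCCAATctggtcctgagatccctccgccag
Nsdhl: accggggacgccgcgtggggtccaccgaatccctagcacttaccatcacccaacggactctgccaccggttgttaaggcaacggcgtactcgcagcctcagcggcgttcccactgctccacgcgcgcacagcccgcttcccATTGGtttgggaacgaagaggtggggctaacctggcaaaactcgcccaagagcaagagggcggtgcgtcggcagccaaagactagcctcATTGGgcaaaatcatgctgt
Insig1: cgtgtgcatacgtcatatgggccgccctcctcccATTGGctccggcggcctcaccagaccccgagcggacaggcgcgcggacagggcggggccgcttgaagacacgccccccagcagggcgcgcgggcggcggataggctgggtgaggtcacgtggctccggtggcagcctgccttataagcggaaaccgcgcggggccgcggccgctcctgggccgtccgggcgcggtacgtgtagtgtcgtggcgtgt
Fasn: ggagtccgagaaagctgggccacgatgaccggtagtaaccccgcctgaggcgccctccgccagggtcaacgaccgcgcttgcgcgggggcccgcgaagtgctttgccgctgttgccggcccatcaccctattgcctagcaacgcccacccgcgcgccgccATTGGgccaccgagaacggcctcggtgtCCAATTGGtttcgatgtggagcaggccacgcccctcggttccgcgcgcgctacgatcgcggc
Tm7sf2: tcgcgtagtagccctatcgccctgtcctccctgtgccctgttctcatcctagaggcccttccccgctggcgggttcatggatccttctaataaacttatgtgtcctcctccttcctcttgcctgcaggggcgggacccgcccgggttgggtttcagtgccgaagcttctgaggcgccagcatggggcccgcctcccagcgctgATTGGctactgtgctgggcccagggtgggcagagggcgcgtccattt

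On either strand of the whole window CCAAT was present in 23 of the 25 genes (92%), against 41.6% of the 16990 measured genes with a window. It was present in all 5 mevalonate and isoprenoid genes and all 9 sterol ring genes matched, in 4 of 5 of the SREBP group and in 5 of 6 of the fatty acid group. The GC box GGGCGG was present in 19 of 25 (76%) against 49.5%, and the E-box CACGTG in 5 (20%) against 9.19%. The sterol element TCACNCCAC was found in 1 of 25 (4%) against 1.43%, in Hmgcs1, where it begins at position -137 from the start. Genes with several windows were counted if any held the letters. A match is a description of the letters and not of binding. Only these letters were searched, so a gene without a match is not shown to lack a sterol element of another spelling. Tm7sf2 held the CCAAT letters as well, at position -47.

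In the mevalonate and isoprenoid branch all 6 measured enzymes had negative differences, with a median of -0.29, and 0 passed the test. The estimates were -0.22 for the first step measured and for mevalonate kinase, and between -0.47 and -0.36 for the next 3 enzymes measured up to farnesyl diphosphate, Idi1 lying among them unmeasured. Hmgcs1, which joins acetyl-CoA units to HMG-CoA, was at 7.55 to 7.98 on WT and 7.29 to 7.96 on LKB1-deficient arrays, so the groups overlapped (-0.22, SE 0.13, adjusted p = 0.485). Mevalonate kinase (Mvk) was at 5.92 ± 0.40 (SD, n = 5) against 6.13 ± 0.13 (SD, n = 5) in WT. The estimate of -0.22 turned to 0.20 without LKB1-deficient arrays 1, 4 and 5 and to 0.22 with covariates for macrophage and B cell list means.

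Phosphomevalonate kinase (Pmvk), the next enzyme, was at 7.31, 7.45, 7.08, 7.16 and 7.14 on WT arrays 1 to 5, the order of all values by array given here. It was at 6.40, 6.73, 6.93, 6.65 and 7.05 on LKB1-deficient arrays. All 5 lay below WT, array 5 by the least, and the difference of -0.47 (SE 0.13) did not pass (adjusted p = 0.106). Mevalonate diphosphate decarboxylase (Mvd) was at 6.76, 7.15, 6.99, 7.13 and 7.14 in WT and at 6.46, 6.36, 6.92, 6.54 and 7.05 in LKB1-deficient cells, so that arrays 1, 2 and 4 were low and arrays 3 and 5 within the WT range (-0.37, adjusted p = 0.264). Farnesyl diphosphate synthase (Fdps) was at 7.60, 7.53, 7.54, 7.89 and 7.61 in WT. It was at 6.96, 7.14, 7.49, 7.18 and 7.62 in LKB1-deficient cells, with arrays 1 to 4 below WT, array 3 by the least, and array 5 within it (-0.36, adjusted p = 0.238). Geranylgeranyl diphosphate synthase (Ggps1), at the branch that makes the GTPase anchor rather than sterols, had a level of 8.52 ± 0.12 (SD, n = 5) in the LKB1-deficient group against 8.54 ± 0.13 (SD, n = 5) in WT (-0.02, 95% interval -0.23 to 0.19). The sign turned to 0.04 with a second quantile normalization.

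Of the 11 enzymes that turn farnesyl diphosphate into squalene and cholesterol, 10 had negative differences, 1 passed, and the median was -0.31. Fdft1, squalene synthase and the first step that commits to sterols, was at 7.92, 7.93, 7.86, 7.97 and 8.18 on WT arrays. It was at 6.85, 7.37, 7.54, 7.59 and 7.75 on LKB1-deficient arrays, all below WT with array 1 the lowest (-0.55, SE 0.15, adjusted p = 0.109). Sqle, which puts the oxygen on squalene and is a rate-limiting step, was at 7.15, 7.30, 6.91, 7.09 and 6.89 on WT arrays. On LKB1-deficient arrays it was at 6.55, 6.41, 6.71, 6.11 and 6.57. The groups did not overlap, and Sqle fell 1.51-fold (-0.60, SE 0.12, adjusted p = 0.0441).

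The Sqle call stood near the threshold. It ended without WT array 1 (adjusted p = 0.119), 2 (0.107), 3 (0.0907), 4 (0.109) or 5 (0.0702) and without LKB1-deficient array 2 (0.0788), 4 (0.0793) or 5 (0.0629), and it held without LKB1-deficient array 1 or 3. With LKB1-deficient arrays 1, 4 and 5 left out it ended too (-0.51, adjusted p = 0.126), as it did with the macrophage and B cell covariates (-0.50, adjusted p = 0.195). A second quantile normalization (adjusted p = 0.0923), no moderation of variances (0.101) and description codes 1 to 6 (0.289) or 7 to 10 (0.217) alone ended it as well. The difference itself stayed between -0.66 and -0.50 in every alternative run.

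Lanosterol synthase (Lss), which closes the rings, was at 5.56 to 6.39 on WT and 5.29 to 6.02 on LKB1-deficient arrays and did not pass (-0.24, adjusted p = 0.595). Cyp51, the lanosterol demethylase that follows, was at 6.74, 6.97, 6.88, 6.91 and 6.95 on WT arrays. It was at 6.32, 6.31, 6.26, 6.10 and 6.81 on LKB1-deficient arrays. Of these, 4 lay below WT and array 5 within it. The difference of -0.53 (SE 0.12) did not pass with all arrays (adjusted p = 0.0655) and passed without array 5 (-0.64, adjusted p = 0.0181), the highest of its group, whose removal had to enlarge it. Cyp51 also passed without the dimmest 40% of genes (adjusted p = 0.0447), with array medians subtracted (0.0477), with array weights (0.037) and without arrays 1, 4 and 5 (-0.60, adjusted p = 0.0232). In all, Cyp51 passed in 5 of 23 alternatives. It did not pass with the macrophage and B cell covariates (-0.64, adjusted p = 0.0929), nor within codes 1 to 6 (0.237) or 7 to 10 (0.476).

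Nsdhl, a dehydrogenase of a sterol demethylation complex, had the lowest estimate of the 29. It was at 7.72, 7.57, 7.67, 7.66 and 7.87 on WT arrays and at 6.33, 7.08, 7.29, 7.11 and 7.33 on LKB1-deficient arrays, all below WT. Array 1 stood apart, and the difference went from -0.67 (SE 0.17, adjusted p = 0.0815) to -0.50 (adjusted p = 0.0203) without it and to -0.57 (adjusted p = 0.0343) with array weights. Nsdhl passed in these 2 of 23 alternatives and in no other. Its partners in that complex were Msmo1 at -0.09 (95% interval -0.36 to 0.17) and Hsd17b7 at -0.22 (95% interval -0.52 to 0.07). The differences among these 3 were not tested.

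The last steps, Ebp, Sc5d and Dhcr7, were lower by estimate and did not pass. The sterol isomerase gene Ebp was at 7.61 to 8.05 in WT and at 7.01 to 7.89 in LKB1-deficient cells, with arrays 1 and 2 the lowest and arrays 4 and 5 within the WT range (-0.31, adjusted p = 0.466). Within the samples with description codes 7 to 10, which are replicates 4 and 5 of both groups, Ebp was at 0.02. Sc5d, the lathosterol desaturase, was at 6.97 on array 1 and 8.04 to 8.45 on the other LKB1-deficient arrays, against 8.23 to 8.49 in WT (-0.44, adjusted p = 0.406), and was at -0.19 without array 1. Dhcr7, which makes cholesterol from its last precursor, was at 7.42 to 7.96 in WT and 7.16 to 7.53 in LKB1-deficient cells (-0.31, SE 0.12, adjusted p = 0.252). Tm7sf2, a sterol reductase, had the positive estimate among the sterol ring genes, at 6.86 ± 0.11 (SD, n = 5) in the LKB1-deficient group against 6.79 ± 0.16 (SD, n = 5) in WT (0.07, 95% interval -0.14 to 0.29). It was at -0.01 without LKB1-deficient arrays 1, 4 and 5.

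**Figure D2:**
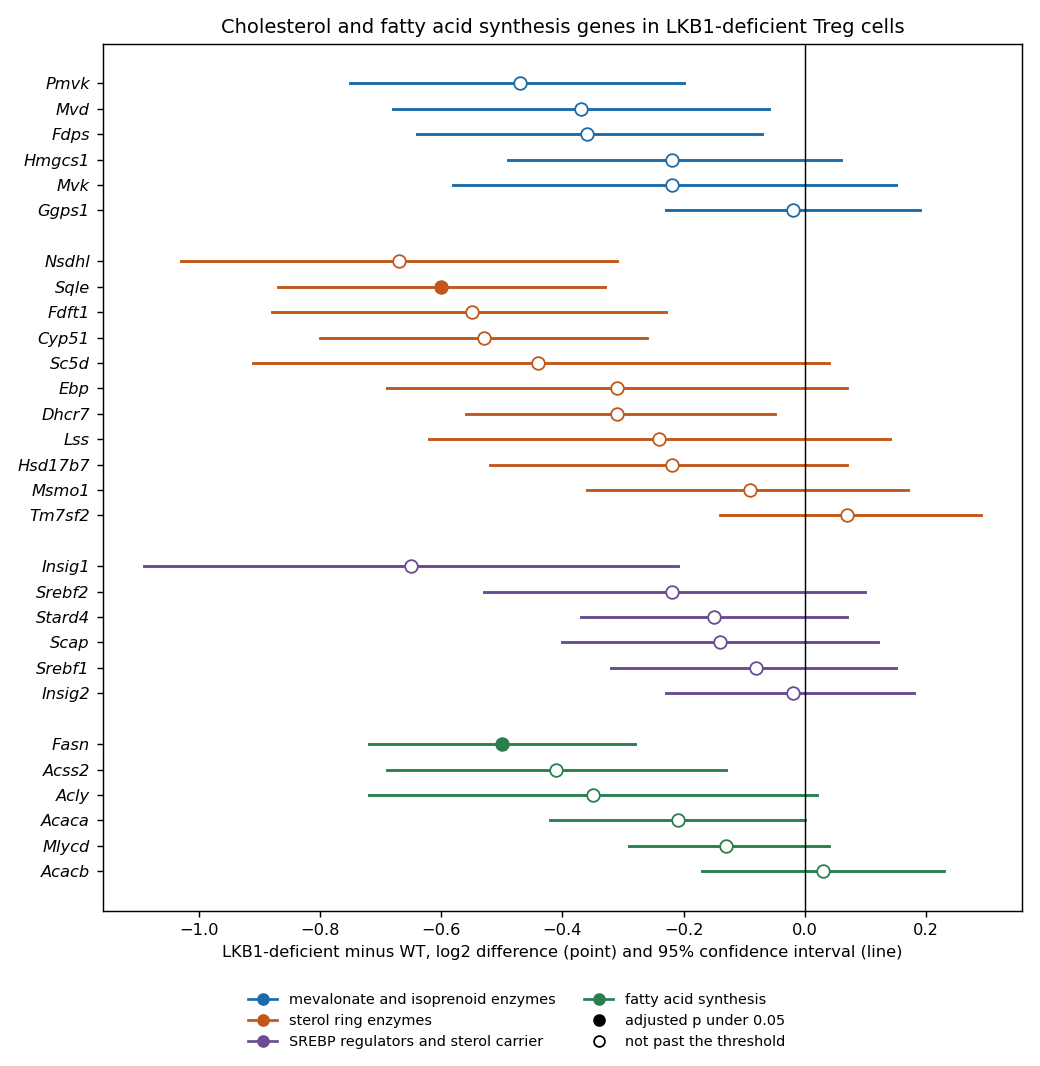
Log2 difference, LKB1-deficient less WT (point), with its 95% confidence interval (line) from limma for each of the 29 measured genes, by group; filled points passed the adjusted threshold of 0.05. Sqle (-0.60) and Fasn (-0.50) are filled, and the points of Tm7sf2 (0.07) and Acacb (0.03) lie right of 0.

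All 6 genes of the SREBP regulators and the sterol carrier Stard4 had negative differences with a median of -0.14 and 0 passed. Srebf2 was at 9.50, 9.80, 9.61, 9.75 and 9.77 in WT. In LKB1-deficient cells it was at 10.03, 9.27, 9.44, 9.22 and 9.40, so that array 1 was above every WT array and the other 4 were below them all (-0.22, adjusted p = 0.551). Without array 1 it was at -0.36 (adjusted p = 0.0778), a change that the removal of the highest value forces. Srebf1 had a level of 7.31 ± 0.13 (SD, n = 5) in the LKB1-deficient group against 7.39 ± 0.18 (SD, n = 5) in WT (-0.08, 95% interval -0.32 to 0.15), and no LKB1-deficient array lay outside the WT range. The sign of Srebf1 turned to 0.07 within description codes 1 to 6.

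Insig1, the SREBP retention protein whose own gene is an SREBP target, was at 8.30, 8.70, 8.47, 8.58 and 8.23 on WT arrays. It was at 8.47, 7.20, 7.55, 7.72 and 8.10 on LKB1-deficient arrays. Arrays 2 to 5 lay below WT and array 1 close to the WT mean of 8.46. The difference of -0.65 (SE 0.20) did not pass with all arrays (adjusted p = 0.163). It was -0.81 (adjusted p = 0.0305) without array 1, -1.08 (adjusted p = 0.0109) without arrays 1, 4 and 5, -1.07 (adjusted p = 0.0188) with the covariates and -0.73 (adjusted p = 0.0432) with array weights. Insig1 passed in these 4 of 23 alternatives and in no other. Arrays 1, 4 and 5 were the highest of their group for Insig1, so a larger difference without them is a consequence of the choice, and the covariates were high on these arrays too.

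Insig2, the related protein that is not driven by SREBP in the same way, was at 6.17 to 6.45 in WT and 6.19 to 6.51 in LKB1-deficient cells (-0.02, 95% interval -0.23 to 0.18). Scap, the SREBP escort, was at 8.01 to 8.71 in LKB1-deficient and 8.28 to 8.51 in WT cells (-0.14, adjusted p = 0.671). Its other probe set gave -0.12. Stard4, which moves sterols between membranes, was at 6.02, 5.89, 5.89, 6.05 and 6.10 in WT. In LKB1-deficient cells it was at 6.01, 5.77, 5.96, 5.58 and 5.87, with arrays 2, 4 and 5 below WT and arrays 1 and 3 within it (-0.15, adjusted p = 0.550). Both Insig2 and Stard4 had 95% intervals that reach above 0.

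Of the 6 genes of fatty acid synthesis 5 had negative differences, 1 passed, and the median was -0.28. Fasn, the synthase that builds palmitate, was at 7.98, 7.87, 7.95, 7.98 and 8.19 on WT arrays. It was at 7.60, 7.62, 7.53, 7.22 and 7.50 on LKB1-deficient arrays. The groups did not overlap, array 4 was the lowest, and Fasn fell 1.42-fold (-0.50, SE 0.10, adjusted p = 0.0398). The call ended without WT array 1 (adjusted p = 0.101), 2 (0.0691), 3 (0.101), 4 (0.0906) or 5 (0.0945) and without LKB1-deficient array 3 (0.0634), 4 (0.0757) or 5 (0.0658), and it held without LKB1-deficient array 1 or 2. With LKB1-deficient arrays 1, 4 and 5 left out, Fasn was at -0.42 (adjusted p = 0.116). With the covariates it was at -0.44 (adjusted p = 0.114). The call ended too with a second quantile normalization (-0.44, adjusted p = 0.0923), with no moderation of variances (0.0599) and within codes 1 to 6 (-0.35, adjusted p = 0.375) or 7 to 10 (-0.73, adjusted p = 0.112).

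The enzymes that supply acetyl-CoA were lower by estimate. ATP citrate lyase (Acly), which makes it from citrate, was at 8.16 to 8.40 in WT. In LKB1-deficient cells it was at 7.18 on array 1 and 8.05 to 8.18 on the other 4, a difference of -0.35 (adjusted p = 0.382) that was -0.17 without array 1. Acss2, which makes it from acetate, was at 7.22, 7.48, 7.14, 7.26 and 7.35 on WT arrays. It was at 6.67, 6.75, 6.67, 7.01 and 7.30 on LKB1-deficient arrays, 4 of them below WT and array 5 within it (-0.41, SE 0.13, adjusted p = 0.167). Without arrays 1, 4 and 5 it was at -0.58 (adjusted p = 0.0417), arrays 4 and 5 being the highest of the group. Acss2 passed in this 1 of 23 alternatives and in no other.

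The carboxylases that commit acetyl-CoA to fat, both substrates of AMPK, had estimates of -0.21 and 0.03. Acaca was at 6.0, 5.89, 5.86, 5.93 and 5.90 in WT and at 5.81, 5.79, 5.51, 5.54 and 5.88 in LKB1-deficient cells (-0.21, SE 0.10, adjusted p = 0.352). Arrays 1 to 4 were below WT and array 5 within it. Acacb had a level of 4.23 ± 0.12 (SD, n = 5) in the LKB1-deficient group against 4.20 ± 0.12 (SD, n = 5) in WT (0.03, 95% interval -0.17 to 0.23). Acacb lay below the array medians (4.83 to 4.86 on WT and 4.88 to 4.94 on LKB1-deficient arrays), and there are no detection calls to tell it from background. Its sign turned to -0.01 with array medians subtracted. Mlycd, which breaks down the malonyl-CoA that the carboxylases make, was at 5.91, 5.96, 5.99, 5.87 and 5.83 in WT and at 5.80, 5.70, 5.83, 5.82 and 5.78 in LKB1-deficient cells. The groups did not overlap, though the nearest values are equal after rounding, and the difference of -0.13 (SE 0.08) did not pass (adjusted p = 0.504).

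**Figure D3:**
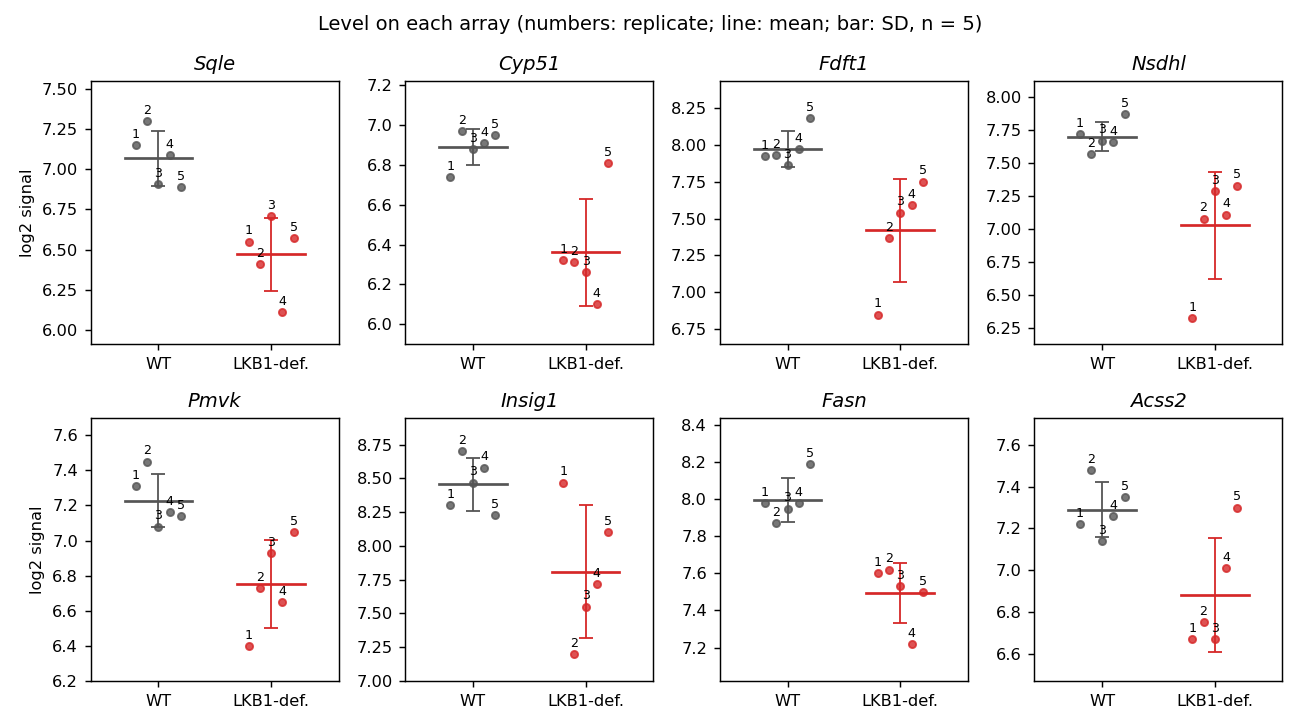
Log2 signal on each array for the 8 genes with the smallest p among the 29, so the panels are not typical of the list. Points are arrays numbered by replicate, horizontal lines are group means and bars are SD (n = 5). Each panel has its own vertical axis that does not start at 0. In Sqle, Fdft1, Nsdhl, Pmvk and Fasn every LKB1-deficient point lies below every WT point, and in Insig1 array 1 (8.47) lies inside the WT range.

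Genes next to these pathways, from 5 lists, gave few calls. In the supply and partners of fatty acid synthesis 1 of 10 measured genes was lower, 0 were higher and 9 were not called (median difference -0.11). The lower one was Slc25a1, the carrier that exports citrate from mitochondria for Acly. It was at 7.76, 7.77, 7.92, 7.95 and 7.81 on WT arrays and at 7.49, 7.10, 7.42, 6.96 and 7.50 on LKB1-deficient arrays, with no overlap (-0.55, SE 0.12, adjusted p = 0.0495). Among the fits that left out 1 array, the call held without LKB1-deficient array 1 (0.0269) and ended in the other 9: without WT array 1 (0.109), 2 (0.0998), 3 (0.135), 4 (0.123) or 5 (0.103) and without LKB1-deficient array 2 (0.0889), 3 (0.0654), 4 (0.0897) or 5 (0.0503). It also ended with the covariates (-0.62, adjusted p = 0.0711), the code run as a block (0.0612), a second quantile normalization (-0.48, adjusted p = 0.111), no moderation of variances (0.101) and codes 1 to 6 (0.334) or 7 to 10 (0.25) alone. Mcat, of mitochondrial fatty acid synthesis, was at -0.34 (adjusted p = 0.256).

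Sterol uptake, transport and storage had 0 of 8 measured genes past the threshold and a median of -0.03. Mylip, a ubiquitin ligase that degrades the LDL receptor and a target of the sterol sensor LXR, was at 8.01, 8.25, 8.15, 8.23 and 8.28 in WT. It was at 8.59, 8.73, 8.82, 8.64 and 8.38 in LKB1-deficient cells, all above WT (0.45, SE 0.10, adjusted p = 0.0538). It passed without LKB1-deficient array 1 (adjusted p = 0.0462) or 5 (0.0376), without arrays 1, 4 and 5 (0.59, adjusted p = 0.0304) and with the covariates (0.60, adjusted p = 0.0353), and array 5 was the lowest of its group. With all arrays it passed without the dimmest 40% of genes (0.0348), with a second quantile normalization (0.0403), with a trended robust prior (0.0313) and with array weights (0.0305), and it did not pass in the other 15 alternatives. Gramd1b, a sterol transfer protein, was at -0.22 (adjusted p = 0.593).

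The other 3 lists had 0 genes past the threshold in limma. In the use of isoprenoids 10 of 12 measured genes had negative differences with a median of -0.14. Coq2, of ubiquinone synthesis, was at 6.93, 6.90, 7.07, 6.87 and 6.89 in WT and at 6.81, 6.74, 6.38, 6.34 and 6.62 in LKB1-deficient cells, with no overlap (-0.35, adjusted p = 0.151), and Fntb, the beta subunit of farnesyltransferase, was at 0.26 (adjusted p = 0.304). In SREBP cleavage and sterol-regulated degradation 3 of 6 were negative, with Erlin2 at 0.43 (adjusted p = 0.317) and Rnf139 at -0.20 (adjusted p = 0.374). Of the 4 other sterol enzymes and cofactors measured 2 were negative, with Cyb5a at -0.21 and Pgrmc1 at -0.29 (adjusted p = 0.522 and 0.553). Beyond palmitate, the elongase Elovl6 had a change opposite in sign to that of Fasn: it rose from a WT mean of 6.59 ± 0.07 (SD, n = 5) to 7.66 ± 0.11 (SD, n = 5), with WT arrays at 6.48 to 6.64 and LKB1-deficient arrays at 7.52 to 7.75. Elovl6 passed as higher (1.07, limma adjusted p = 2.3e-04). It passed in 22 of 23 alternatives and not within codes 1 to 6 (1.01, adjusted p = 0.123). The desaturase Scd1 did not pass (0.71, adjusted p = 0.477) and turned to -0.26 without LKB1-deficient arrays 1, 4 and 5.

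Set side by side, the groups shifted by median differences of -0.29 (mevalonate and isoprenoid), -0.31 (sterol ring), -0.14 (SREBP regulators and carrier) and -0.28 (fatty acid synthesis). The difference between the groups was not tested. The mean of the 11 sterol ring genes was 7.06, 7.19, 7.07, 7.18 and 7.14 in WT. In the LKB1-deficient group it was 6.46, 6.72, 6.97, 6.73 and 6.99, all below WT. The mean of the 6 fatty acid genes was 6.55 to 6.63 in WT and 6.25, 6.35, 6.30, 6.31 and 6.48 in the LKB1-deficient group, also all below. The mevalonate mean was 7.29 to 7.50 in WT and 6.90, 7.13, 7.31, 7.03 and 7.27 in LKB1-deficient cells, where array 3 fell within the WT range. The mean of the SREBP group was 7.61 to 7.80 in WT and 7.67, 7.38, 7.51, 7.40 and 7.58 in LKB1-deficient cells, where array 1 fell within it.

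Beside the transcripts of other cells, the values by array were as follows. LKB1-deficient arrays 4 and 5 had like macrophage means (9.29 and 9.40), while their sterol ring means were 6.73 and 6.99. Arrays 2 and 3 had macrophage and B cell means within the WT range, and NK means of 4.64 and 4.87, above the highest WT array (4.59). Their sterol ring means were 6.72 and 6.97. The part of other cells in these values was not tested. Without arrays 1, 4 and 5, the median difference of the 29 genes was -0.23 with 25 of them negative, and with the covariates it was -0.24 with 25 negative. Of all genes, 50.2% and 50.3% were negative in these fits. Within description codes 1 to 6, replicates 1 to 3 of each group, the median of the 29 was -0.24 with 26 negative, and within codes 7 to 10 it was -0.31 with 25 negative. Of all genes, 47% were negative within codes 1 to 6 and 55.5% within codes 7 to 10, with medians of 0.01 and -0.03. The labels do not explain the codes.

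**Figure D4:**
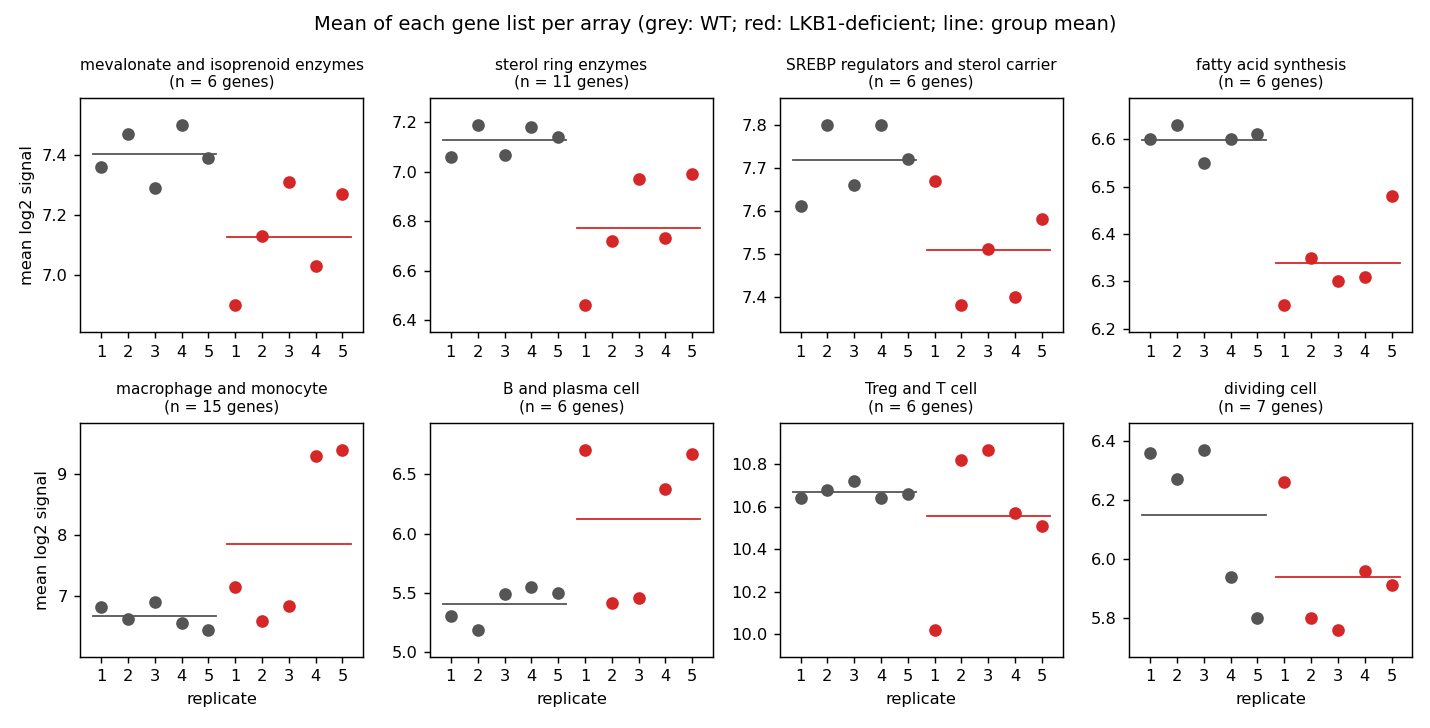
Mean log2 signal of each gene list on each array (grey, WT replicates 1 to 5; red, LKB1-deficient replicates 1 to 5; lines, group means), each panel with its own vertical axis that does not start at 0. The sterol ring and fatty acid panels have every red point below every grey point, whereas the macrophage panel has 2 high red points, arrays 4 and 5 at 9.29 and 9.40.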

How the data were processed

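Single-channel arrays were hybridised with biotin-labelled cDNA made from nanogram amounts of total RNA with the NuGEN WTA Pico v2 and Encore Biotin kits, per the labels' protocols. The deposited values are log2 signals per probe set, made by the authors with RMA and Partek 6.6, per the submitters' processing notes. The sources used here do not give the build or settings. Amplification can distort levels, and quantile normalization, a part of RMA, hides a shift shared by all transcripts. The medians over all probe sets lay at 4.83 to 4.86 on WT and 4.88 to 4.94 on LKB1-deficient arrays, without overlap. There are no detection calls.

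Of 41345 probe sets, 23521 named 1 gene, 1814 several and 16010 none. The highest-mean probe set stood for each of 22180 genes. The 29 genes matched the RefSeq table by Entrez identifier. LKB1-deficient arrays were compared with WT in limma 3.58.1 (R 4.3.3) by lmFit and eBayes with no covariate, 4.36 prior degrees of freedom and Benjamini-Hochberg adjustment over all genes. Adjusted p-values come from this model unless another fit is named. The code was tested on simulated data. Precision is limited by how many arrays there are.

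The genes, lists and alternatives were chosen with earlier results of these data known. The named genes are all 31 listed ones, with the called genes and the 2 smallest p of each of 5 related lists. Values by array are given for listed genes called, without overlap or among the 3 smallest p of their group, and for Slc25a1, Mylip and Coq2. Other genes are given by their range, mean and SD or difference. Of the 6 marker lists, the erythroid one had 1 measured gene, Slc4a1 (0.15, adjusted p = 0.578), and no mean. Alternatives were the mean of probe sets, a filter on dim genes, rescaling, other variance priors, array weights, the replicate number or run of description codes as a block, each run alone, macrophage and B cell list averages entered as covariates, arrays left out and a stricter threshold.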

Additional observations from a re-analysis of the deposited data

Results flagged for a closer look

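In 9 of 92 groups of 5 arrays examined, for the named genes and group means, 1 array stood apart from the other 4 by more than Dixon's 95% critical value of 0.71 of the range. Chance gives about 1 in 20. LKB1-deficient array 1 was the one in 4 of them. It was low in Nsdhl (6.33, the others at 7.08 to 7.33), Sc5d (6.97, the others at 8.04 to 8.45) and Acly (7.18, the others at 8.05 to 8.18), and high in Srebf2 (10.03, the others at 9.22 to 9.44). This array also had the lowest mean of the Treg and T cell list, at 10.02. The part of that in these values was not tested.

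WT arrays stood apart in the other 5. WT array 4 was high in Fdps (7.89, the others at 7.53 to 7.61) and Acacb (4.41, the others at 4.10 to 4.18). WT array 3 was low in Hmgcs1 (7.55, the others at 7.89 to 7.98), WT array 1 low in Scap (8.28, the others at 8.45 to 8.51) and WT array 2 high in Mvk (6.36, the others at 6.02 to 6.10).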

How the results depend on the processing

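All 4 group medians stayed negative in every alternative run. The number of listed genes past the threshold, 2 lower with all arrays, was 0 with a second quantile normalization, without moderation of variances, with the replicate number as a block, within codes 1 to 6, within codes 7 to 10 and at an adjusted p under 0.01, 1 with the covariates and 5 with array weights. It was 0 to 4 with an array left out. At an unadjusted p under 0.05 in limma, 10 of the 29 were lower with the second normalization (7.39% of all genes), 11 with the replicate block (8.18%), 11 within codes 1 to 6 (6.21%), 9 within codes 7 to 10 (6.66%) and 13 without moderation (8.82%). Same-numbered WT and LKB1-deficient arrays did not deviate together over all genes (r of -0.08 to 0.10), and the main fit did not treat the numbers as pairs. In mixed chimeras cells of both groups can come from the same animal, and a low r cannot exclude such pairs. With the replicate block the adjusted p of Sqle was 0.124, that of Fasn 0.116 and that of Slc25a1 0.125.

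Over all genes, the counts higher and lower were 72 and 284 without the dimmest 40% of genes, 49 and 285 with array medians subtracted, 67 and 103 with a second quantile normalization, 79 and 307 with a trended robust prior and 17 and 132 without moderation. They were 135 and 329 with array weights, 14 and 36 with the replicate block, 423 and 46 within codes 7 to 10, 154 and 203 without LKB1-deficient arrays 1, 4 and 5, 97 and 163 with the covariates and 5 and 20 at 0.01. Within codes 1 to 6 limma called 0 genes, with 2247 at an unadjusted p under 0.05. Leaving out an array gave 8 to 180 higher and 30 to 340 lower. The cause was not tested.

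The fatty acid median was -0.35 without the dimmest genes, which leaves out Acacb, -0.11 within codes 7 to 10 and -0.34 to -0.20 with an array left out. The sterol ring median was -0.48 within codes 1 to 6 and the SREBP median -0.33 within codes 7 to 10. Of the 29 genes 20 kept their sign in every alternative, and the others were near 0 or turned with the arrays used, without passing. Signs turned for Acacb (-0.01) with array medians subtracted, for Ggps1 (0.04), Insig2 (0.02) and Acacb (-0.02) with a second quantile normalization and for Insig2 (0.01) with array weights. They turned for Srebf1 (0.07) within codes 1 to 6, for Ebp (0.02), Scap (0.01), Acacb (-0.08) and Cyb5a (0.07) within codes 7 to 10, and without arrays 1, 4 and 5 for Mvk (0.20), Tm7sf2 (-0.01), Msmo1 (0.06), Srebf1 (0.04), Insig2 (0.03), Acacb (-0.02), Pgrmc1 (0.12) and Scd1 (-0.26). With the covariates they turned for Mvk (0.22), Msmo1 (0.03), Srebf1 (0.04), Insig2 (0.04), Acacb (-0.03), Pgrmc1 (0.08) and Scd1 (-0.33). With an array left out Ggps1 ranged from -0.05 to 0.03, Insig2 from -0.07 to 0.01 and Acacb from -0.02 to 0.08. The median of all genes was -0.04 with array medians subtracted and -0.01 with a second quantile normalization. In the first 200 bases of the promoter windows CCAAT was present in 76% of the matched genes (32.9% of all measured genes with a window), the sterol element in 4% (0.989%), the E-box in 16% (5.67%) and the GC box in 64% (35.5%).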

Other observations

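LKB1-deficient arrays 4 and 5 both lay above every WT array for 9 of the 40 measured genes of the 5 related lists (22.5%), for 0 of the 29 cholesterol and fatty acid genes and for 10.2% of all genes. This count was chosen after the values were seen. The 9 genes were Cyb5r3, Erlin1, Erlin2, Fntb, Idh1, Lipa, Mylip, Npc1 and Syvn1. Some were above WT on other LKB1-deficient arrays too: Mylip on all 5 and Fntb on arrays 1 and 3 (6.85 and 6.92). Npc1 and Syvn1 were also above WT on array 3 (7.44 and 8.55). The dehydrogenase gene Idh1, a source of NADPH, was at 8.14 and 8.23 on these arrays, against 6.71 to 7.20 on WT arrays and 6.50 to 6.87 on LKB1-deficient arrays 1 to 3. Lipa, the lysosomal lipase that frees cholesterol, was at 9.15 and 9.25, against 8.48 to 8.88 on WT arrays and 8.13 to 8.40 on LKB1-deficient arrays 1 to 3. Erlin2, a sterol-binding protein of the endoplasmic reticulum, was at 7.42 and 7.05, against 6.25 to 6.49 on WT arrays. LKB1-deficient arrays 1 to 3 had it at 6.51, 6.61 and 6.26, so that arrays 1 and 2 were above WT as well. None of these 3 passed the limma test (adjusted p = 0.601, 0.983 and 0.317). The macrophage and monocyte mean was highest on arrays 4 and 5, and its part in these values was not tested.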
